A study of Saccharomyces cerevisiae with 28 samples.

Results

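Mcm2-ChEC profiles of a sir2 strain were compared with those of a SIR2 strain, both carrying expanded rDNA without a transcriptional terminator. These are 4 of the 28 libraries of the deposited table, 2 for each genotype, and they were chosen by the strain named in the table and paired by the time for which calcium was present, 30 s or 60 s. The table holds, base by base, the read depth over 2001 bases of one spacer of the budding yeast rDNA (Saccharomyces cerevisiae, chromosome XII, 458000 to 460000, sacCer3). Both strains were MATa with the alleles ade2-1, ura3-1, his3-11 and trp1-1, leu2 and can1 mutations, fob1Δ::HIS3, a right arm of chromosome XII marked by a HygR deletion, and MCM2-3xFLAG-MNase-KanMx, and all cells were arrested in G1 with alpha factor. The sir2 strain carried sir2Δ::LEU2 and also hmlαΔ::NAT, a deletion of the silent mating cassette that is not listed for the SIR2 strain. The paper also lists a higher rDNA copy number for the sir2 strain, with unlike values in its strain list and a figure legend. SIR2, this deletion and copy number cannot be told apart. Each genotype is 1 strain, and both calcium times of a strain may come from 1 culture, so that the spread between libraries may be technical. SIR2 itself lies outside the interval of the table, so its deletion could not be checked in these depths.

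In ChEC, micrococcal nuclease is fused to a chromatin protein and is switched on by calcium in permeabilized cells, so that it cuts the DNA next to that protein. Mcm2 is a subunit of the Mcm2-7 complex, the replicative helicase that ORC, Cdc6 and Cdt1 load onto origins in G1. Sir2 is an NAD-dependent histone deacetylase, required for silencing in the rDNA, where its loss derepresses noncoding transcription by RNA polymerase II from promoters in the spacer. Fob1 binds the replication fork barrier in the other rDNA spacer, across the 5S RNA gene, and promotes changes in the number of repeats, and neither strain has it.

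The spacer studied, annotated as NTS2-1 (458433 to 459675), separates RDN37-1, the gene of the ribosomal precursor RNA that RNA polymerase I transcribes (451575 to 458432, minus strand), from RDN5-1, the 5S RNA gene (459676 to 459796, plus strand). The rDNA origin, or rARS, is annotated as ARS1200-1 (458991 to 459097), and all distances are counted from its first base, 458991, with RDN37-1 to the left. A Reb1 site and the positions of 6 nucleosomes served as windows, each fixed as a rounded distance from the rARS. They were not mapped in these libraries, so a nucleosome's name stands for a place and not for a nucleosome found there.

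In all 4 libraries the depth tended to fall 50 bases after a sharp rise, which is the length of a sequenced end. The 3 stretches shown begin with rises in nucleosomes 1, 2 and 3 that were among the 5 largest in at least 3 of the libraries, and the genotypes differed most at or next to the second and the third of them. The fall 50 bases on was 1.05 to 1.06 times the rise in the first, 0.157 to 0.591 times in the second and 0.862 to 0.921 times in the third. The sequences are from the RefSeq reference, plus strand, and the capitals mark the 50 bases from the rise to the fall.
Left stretch (chromosome XII, 458730 to 458819, nucleosome 1, capitals from 241 bp to 192 bp left of the rARS): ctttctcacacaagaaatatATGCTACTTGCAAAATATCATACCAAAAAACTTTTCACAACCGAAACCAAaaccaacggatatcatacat
Stretch at the rARS (458948 to 459037, nucleosome 2, capitals from 23 bp left to 26 bp right): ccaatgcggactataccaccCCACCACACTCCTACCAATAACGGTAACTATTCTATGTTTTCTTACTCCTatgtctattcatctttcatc
Right stretch (459091 to 459180, nucleosome 3, capitals from 120 bp to 169 bp right): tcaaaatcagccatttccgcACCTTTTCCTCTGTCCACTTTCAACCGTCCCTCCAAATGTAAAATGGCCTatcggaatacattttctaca
The A and T bases made up 68%, 60% and 54% of the capitals in this order. Each stretch occurred 2 times on chromosome XII of the reference, which holds a pair of rDNA copies.

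Between the stretch at the rARS and the right stretch lay the best match to the ARS consensus, the motif of yeast origins that ORC binds. Searched on both strands between 170 bp on the left and 470 bp on the right, it was found once with 11 of 11 letters, on the minus strand from 67 bp to 77 bp right of the rARS, where it reads TTTTACATTTT. The plus strand is shown with the match in capitals.
ARS consensus (459038 to 459088): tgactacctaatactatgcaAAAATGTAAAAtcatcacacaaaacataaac
Of 1682 windows of the same length on chromosome XII, 4.16% held a match of 11 letters. In the Reb1 window the motif TTACCCG, searched on both strands, was found once, on the minus strand, and 0.899% of 8230 windows of 131 bp held it.
Reb1 motif (458618 to 458664, capitals from 353 bp to 347 bp left of the rARS): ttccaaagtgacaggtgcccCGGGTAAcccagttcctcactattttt
These matches are letters of the reference and say nothing of what was bound.

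The depth, summed and divided by the length of a read, came to 2127349 reads in the interval for SIR2 at 30 s, 3256657 for SIR2 at 60 s, 958214 for sir2 at 30 s and 3337670 for sir2 at 60 s. The depths were not scaled by the authors, so each was taken as a percent of the summed depth of its own library. A share of depth therefore says where the sequenced ends lay, each covering 50 bases, and not how many cuts there were. Fragments of all sizes are counted together, those of nucleosome size included. In the stretch around the rARS, which reaches 170 bp to the left and 470 bp to the right, lay 62.5% and 63.5% of the depth in SIR2 and 64.8% and 65.1% in sir2, against 36.6% to 37.9% in 4 libraries of sonicated DNA from untagged strains of the same background. The profile of sonicated DNA shows the even coverage that the table gives without nuclease cuts.

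Loss of SIR2 went with a shift of the Mcm2-ChEC signal from the left to the right of the rARS. In SIR2 the highest base lay 17 bp left of the rARS at both times and held 0.344% of the depth at 30 s and 0.320% at 60 s. In sir2 the highest base lay to the right, at 129 bp with 0.329% at 30 s and at 122 bp with 0.298% at 60 s. The places themselves were shared: the second highest maximum of SIR2 lay 129 bp right at 30 s and 122 bp right at 60 s, and that of sir2 39 bp left at 30 s and 17 bp left at 60 s. The order of the 2 maxima was thus reversed between the genotypes in both pairs of libraries.

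**Figure D1:**
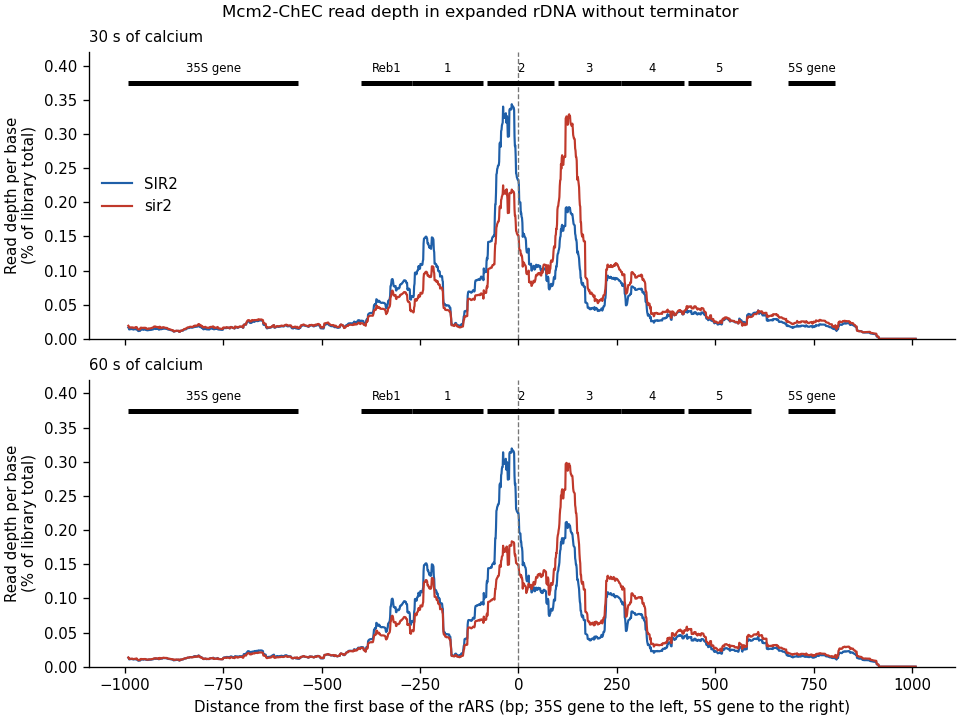
Read depth per base in percent of the library total (vertical axis) against the distance from the first base of the rARS in bp (horizontal axis), at 30 s (top) and 60 s (bottom) of calcium, with SIR2 in blue and sir2 in red; black bars mark the genes, the Reb1 window and nucleosomes 1 to 5. The blue maximum 17 bp left of the rARS reaches 0.344% and 0.320%, and the red maximum to the right reaches 0.329% and 0.298%.

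At the base 17 bp left of the rARS, sir2 held 0.219% of the depth at 30 s and 0.184% at 60 s, which is 0.636 and 0.575 times the SIR2 values. At the base 129 bp right, SIR2 held 0.193% and 0.208% and sir2 0.329% and 0.297%, which is 1.71 and 1.43 times the SIR2 values. The sir2 libraries thus lay below SIR2 at the left maximum and above it at the right one at both times. In sonicated DNA the base 17 bp left held 0.0546% to 0.0595% and that at the right one 0.0580% to 0.0615%, so that all 4 Mcm2-ChEC libraries were well above it at both. The right maximum divided by the left maximum was 0.561 and 0.663 in SIR2 and 1.46 and 1.63 in sir2, 2.53-fold higher in sir2 as a mean of both times.

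The right share, defined as the percent of the depth in that stretch found to the right of the first rARS base, puts the shift in 1 number. It was 58.9% at 30 s (95% Wilson interval 58.8% to 59.0%) and 61.4% at 60 s (61.3% to 61.4%) in SIR2. In sir2 it was 72.8% at 30 s (72.7% to 72.9%) and 76.3% at 60 s (76.3% to 76.4%). These intervals cover counting error only, and reads made by PCR are not independent molecules. Both sir2 libraries lay above both SIR2 libraries, and the means were 74.6% ± 2.49 (SD, n = 2) and 60.1% ± 1.73 (SD, n = 2).

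The difference was 13.9 percentage points at 30 s, 15.0 at 60 s and 14.4 as a mean. It was larger than the difference between the times, which was 2.45 points in SIR2 and 3.52 in sir2. A two-sided exact permutation test of the means gave p = 0.333, the smallest value that 6 relabellings of 2 against 2 libraries can give, so this design cannot reach 0.05. The size depended on where left and right were divided: with the boundary 40 bp further left, inside the stretch at the rARS, the mean difference was 6.85 points, and 40 bp further right it was 16.6.

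In sonicated DNA the right share was 74.0% to 74.3% in the 4 libraries, and an even profile would give 73.3%. The sir2 value lay near this level although its profile was not even: sir2 had both maxima, while sonicated DNA had neither. The position with equal depth on its left and right within the same stretch lay 40 bp and 54 bp right of the rARS in SIR2 and 117 bp and 118 bp right in sir2. In sonicated DNA it lay between 145 bp and 148 bp right. On this measure too the genotypes did not overlap, and both lay left of sonicated DNA.

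**Figure D2:**
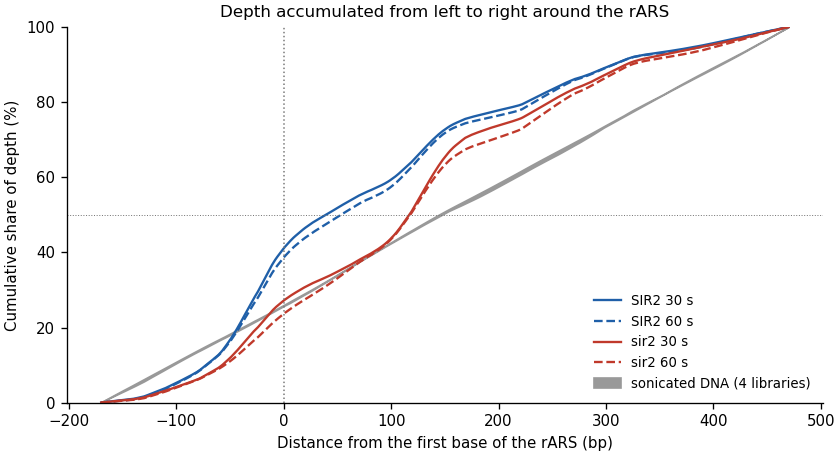
Depth summed from left to right, in percent of the depth in the stretch around the rARS (vertical axis), against the distance from the rARS in bp (horizontal axis), for SIR2 (blue) and sir2 (red) at 30 s (solid) and 60 s (dashed) and for the 4 libraries of sonicated DNA (grey band). The blue curves pass 50% at 40 bp and 54 bp and the red ones at 117 bp and 118 bp.

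The windows showed how the difference was spread along the repeat. Nucleosome 2 (458911 to 459081), which contains the left maximum and most of the rARS, held the largest share in SIR2, 31.0% at 30 s and 30.3% at 60 s, and 22.8% at both times in sir2. Nucleosome 3 (459091 to 459251), which contains the right maximum, held 16.0% and 17.2% in SIR2 and 25.0% and 24.2% in sir2. Nucleosome 2 thus led nucleosome 3 by a wide margin in SIR2, while in sir2 nucleosome 3 was ahead by a small one. The sir2 values were 0.737 and 0.752 times the SIR2 values at nucleosome 2, and 1.56 and 1.41 times at nucleosome 3.

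To the left, nucleosome 1 (458721 to 458901) held 14.1% and 14.2% of the depth in SIR2 and 10.4% and 11.9% in sir2. The Reb1 window (458591 to 458721), named for a DNA-binding factor that excludes nucleosomes, held 7.56% and 8.37% in SIR2 and 6.16% and 6.61% in sir2. In both windows the 2 genotypes did not overlap, with a mean log2 ratio of −0.35 ± 0.13 (SD of the 2 times) at nucleosome 1 and −0.32 ± 0.03 at Reb1. As shares of the total, the windows from the rARS to the Reb1 site were thus all lower in sir2. Scaled to the Reb1 window, the mean log2 ratio was −0.03 at nucleosome 1 and −0.11 at nucleosome 2, so that little of the difference at nucleosome 1 was left.

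To the right, nucleosome 4 (459251 to 459411) held 7.66% and 7.99% in SIR2 and 9.50% and 10.3% in sir2, a mean log2 ratio of 0.34 ± 0.04. Nucleosome 5 (459421 to 459581) held 4.81% and 4.86% in SIR2 and 5.17% and 5.87% in sir2, a ratio of 0.19 ± 0.12. Nucleosome 6 (459591 to 459731), which reaches into RDN5-1, held 3.56% and 3.34% in SIR2 and 4.27% and 3.95% in sir2, a ratio of 0.25 ± 0.01. All 3 windows were higher in sir2 at both times without overlap, and by less than nucleosome 3, whose log2 ratio was 0.57 ± 0.11.

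At the left edge of the interval the genotypes were closer. RDN37-1, the ribosomal precursor gene, held 7.10% and 5.98% in SIR2 and 7.71% and 5.77% in sir2, and the spacer between it and the Reb1 window 3.14% and 2.77% in SIR2 and 3.15% and 2.76% in sir2. The groups overlapped in both, and the sign of the difference was not the same at 30 s and at 60 s. The share of RDN5-1, the 5S RNA gene, was 2.22% and 1.81% in SIR2 and 2.90% and 2.14% in sir2, higher in sir2 at each time, with a mean log2 ratio of 0.31 ± 0.10, but with overlap between the groups. The start of NTS1-2 to its right held 1.57% and 1.56% in SIR2 and 1.75% and 1.98% in sir2, without overlap and with a mean log2 ratio of 0.25 ± 0.13. That window is covered in part only, since in all 4 libraries the depth fell to nearly 0 beyond 915 bp right of the rARS, as it did in 3 of the 4 libraries of sonicated DNA mapped to the same modified reference.

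**Figure D3:**
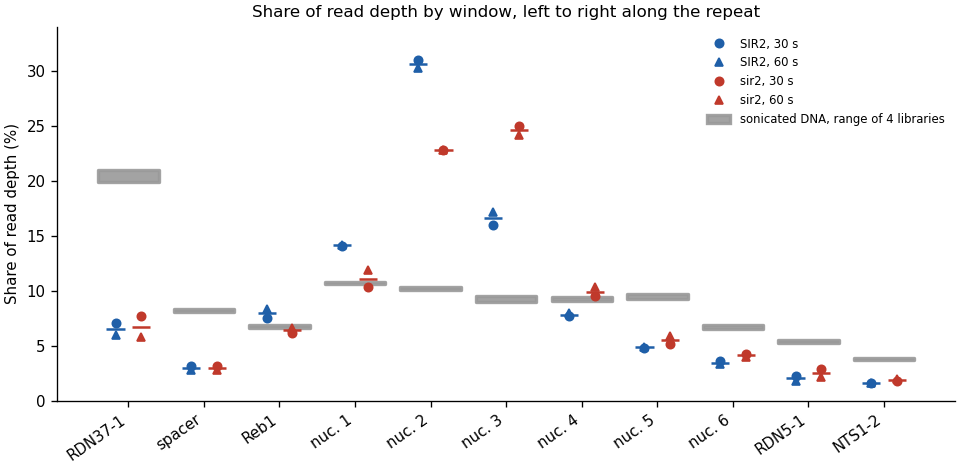
Share of the read depth in percent (vertical axis) in 11 windows from left to right along the repeat (horizontal axis), for SIR2 (blue) and sir2 (red) at 30 s (circles) and 60 s (triangles), with short lines at the means and grey bars for the range of 4 libraries of sonicated DNA. Nucleosome 2 holds 31.0% and 30.3% in SIR2 and nucleosome 3 holds 25.0% and 24.2% in sir2.

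In a test across the whole interval, the depth shares in 39 bins of 50 bp were fitted with limma on the log2 scale with calcium time as a term. In sir2, 11 bins (28.2%) were higher and 7 (17.9%) lower at an adjusted p under 0.05. Without calcium time as a term 2 were higher and 2 lower, all 4 of them among those called with it. Of the bins called with it, all 7 lower bins started between 350 bp left of the rARS and its first base, and 7 of the 11 higher bins followed without a gap from 50 bp to 399 bp right. The other 4 higher bins lay from 650 bp to 849 bp right, across RDN5-1 and its surroundings, and of these 2 overlapped between the genotypes. None of the 11 bins left of the Reb1 window was called, and without adjustment 12 bins were higher and 8 lower at p under 0.05.

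The largest fall was in the bin from 50 bp to 1 bp left of the rARS. It held 15.2% and 14.2% of the depth in SIR2 and 9.92% and 8.21% in sir2, a log2 ratio of −0.71 (SE 0.12, limma adjusted p 7.49e-06). The next falls were in the bins that start 100 bp left (−0.57), 250 bp left (−0.37), at the rARS itself (−0.31) and 300 bp left (−0.44), ordered by the share of depth lost. Their limma adjusted p ranged from 0.00016 to 0.0301, and in all 5 bins both sir2 libraries lay below both SIR2 libraries.

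The largest rise was in the bin from 100 bp to 149 bp right, which held 8.31% and 9.09% in SIR2 and 14.0% and 12.8% in sir2, a log2 ratio of 0.62 (limma adjusted p 4.78e-05). The bin from 150 bp to 199 bp right held 3.28% and 3.04% in SIR2 and 5.64% and 4.88% in sir2, and its log2 ratio of 0.73 (limma adjusted p 6.97e-06) was the highest of all bins. The bins starting 50, 250 and 200 bp right followed with log2 ratios of 0.34, 0.33 and 0.33 (limma adjusted p 0.0217 for each). As at the falls, the genotypes did not overlap in these 5 bins. Over all 39 bins, both sir2 libraries were above both SIR2 libraries in 14 (35.9%) and below them in 10 (25.6%).

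Neighbouring bins share reads, and limma pooled the spread over all bins, so these p-values are smaller than independent bins would give. The replicates in the fit are the 2 calcium times of 1 strain per genotype. Its SE and p-values therefore do not measure the spread between strains or cultures. With any 1 library left out, calcium time could no longer be a term and 0 bins passed in either direction, while 2 to 10 bins were higher and 2 to 6 lower at an unadjusted p under 0.05. Scaled to the Reb1 window in place of the total, 28 bins were higher and 1 lower. Scaled to the depth outside the stretch around the rARS, 15 were higher and 4 lower, so the balance of higher and lower bins depends on the scaling. The right share is a ratio within 1 library, so a scaling of the whole library cancels out of it by definition. Under these 3 scalings the median log2 ratio over all covered bases was 0.08, 0.40 and 0.17.

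**Figure D4:**
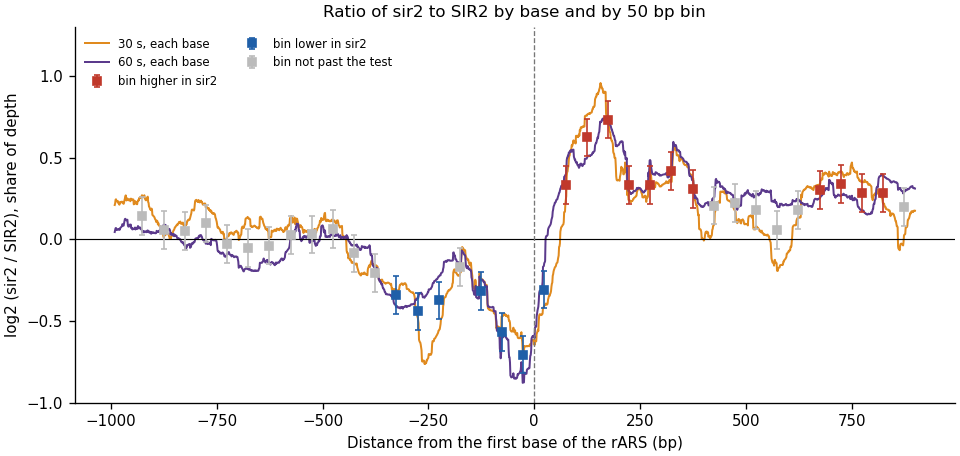
Log2 ratio of sir2 to SIR2 in share of depth (vertical axis) against the distance from the rARS in bp (horizontal axis), for each base at 30 s (orange) and 60 s (purple) and for bins of 50 bp (squares, error bars 1 SE), coloured where the limma test called them higher (red) or lower (blue) and grey where it did not. The ratio is lowest just left of the rARS, at −0.71 in the bin ending there, and highest in the bin from 150 bp, at 0.73.

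Base by base, 40 bases (2.00% of 2001) were at least 1.5-fold higher in sir2 at both times and 43 (2.15%) at least 1.5-fold lower. Scaled to the Reb1 window these counts were 365 and 0, and scaled to the depth outside the stretch around the rARS 82 and 4, so the number of lower bases rests on the scaling to the total. With that scaling, the 40 higher bases formed 1 unbroken run from 146 bp to 185 bp right of the rARS (459137 to 459176), on the falling side of the right maximum and partly within the capitals of the right stretch above. The lower bases lay between 81 bp left and 1 bp right, with 31 of them in 1 run from 29 bp left (458962 to 458992). No base reached 2-fold at both times. At a 1.25-fold threshold 255 bases (12.7%) were higher, all right of the rARS, and 169 (8.45%) lower, of which 156 were on the left.

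The base with the highest ratio of sir2 to SIR2, as a mean of both times, lay 157 bp right of the rARS, with 0.0997% and 0.0922% in SIR2 and 0.194% and 0.151% in sir2. The base with the lowest ratio lay 27 bp left, with 0.296% and 0.274% in SIR2 and 0.184% and 0.149% in sir2. These are 1.94-fold and 1.64-fold higher and 1.61-fold and 1.84-fold lower in sir2, at 30 s and 60 s. Both sir2 libraries were above both SIR2 libraries at 631 bases (31.5%) and below both at 415 (20.7%). Of the 161 bases of nucleosome 3, 149 lay above and none below, and of the 131 bases of the Reb1 window 118 lay below and none above.

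Between the maxima the sign of the difference turned, 62 bp right of the rARS at 30 s and 27 bp right at 60 s. At 30 s this base is 5 bp from the ARS consensus match, and at 60 s it is on the left of it. Summed over all bases, 14.4% of the depth at 30 s and 13.6% at 60 s lay at other places in sir2 than in SIR2. Such a sum is positive for any pair of unlike libraries, and it is not given here between the times of the same genotype. How much of it goes with genotype is therefore not known.

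Despite the different heights, the places where the depth changed from one base to the next were largely common to both genotypes. The step profiles correlated across bases best at a shift of 0 bp, with r = 0.88 at 30 s and 0.91 at 60 s between the genotypes, against 0.99 between the times of SIR2 and 0.94 between those of sir2. Bases are not independent, and the value is a description. Of the 5 largest rises and the 5 largest falls in each library, the rises 23 bp left and 120 bp right and the falls 191 bp left and 170 bp right were found in all 4.

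At the rise 120 bp right, which begins the capitals of the right stretch, the depth grew by 0.264 and 0.227 in SIR2 and by 0.563 and 0.379 in sir2, each per 1000 of the library's summed depth. The sir2 step was thus 2.14 and 1.67 times as high. At the rise 23 bp left, which begins the capitals of the stretch at the rARS, it grew by 0.383 and 0.373 in SIR2 and by 0.284 and 0.276 in sir2, or 0.742 and 0.739 times. At the rise 241 bp left the growth was 0.236 and 0.245 in SIR2 and 0.177 and 0.205 in sir2. Of these rises, the one to the right of the rARS was higher in sir2 and both to the left were lower, without overlap between the genotypes. Among the other large rises, those 60, 56, 48 and 39 bp left were lower in sir2 at both times. The rise 108 bp right was higher. Those 129 bp left (0.951 and 1.01 times), 77 bp left (1.06 and 1.00 times) and 223 bp right (1.04 and 1.11 times) differed little.

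Strains with normal rDNA, of another genetic background and with FOB1, were measured by the same assay, and calcium times were not paired in this comparison. Their right share was 32.3% and 26.2% in the 2 SIR2 libraries and 70.5% in the 1 sir2 library. The sir2 value thus lay within 4.05 percentage points of the mean in expanded rDNA, whereas SIR2 in expanded rDNA was 30.9 points above SIR2 in normal rDNA. The difference between the genotypes was 41.3 points in normal rDNA and 14.4 points in expanded rDNA. With 1 sir2 library of normal rDNA these differences were not tested. Both strains with normal rDNA list hmlα::HygR, whereas of the expanded strains without terminator only sir2 lists an HML deletion. Strain background, FOB1, HML and copy number cannot be told apart. For strains with expanded rDNA the paper also reports a diffuse and fragmented nucleolus, and early rDNA replication with or without SIR2. These cannot be separated from the rest either. In normal rDNA the right maximum divided by the left one was 0.130 and 0.102 in SIR2 and 1.02 in sir2, so that the right maximum of the SIR2 strain was more prominent in expanded rDNA.

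**Figure D5:**
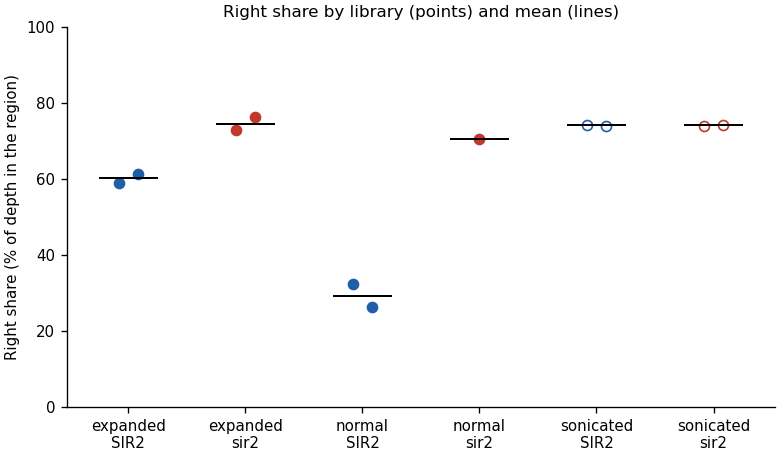
Right share in percent of the depth in the stretch around the rARS (vertical axis) for each library (points) with group means (lines): expanded rDNA without terminator, normal rDNA and sonicated DNA (open circles), with SIR2 in blue and sir2 in red. The expanded SIR2 libraries, at 58.9% and 61.4%, lie between normal SIR2 (32.3% and 26.2%) and the sir2 libraries.

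The profiles of both expanded strains matched those of normal rDNA best at a shift of 0 bp (r of the steps across bases 0.82 for SIR2 and 0.86 for sir2). In the 1 library of the sir2 strain that carries the terminator, bases to the right of the insertion were displaced by 211 bp. With that shift undone, its right share was 66.6%, below both sir2 libraries without terminator and above both SIR2 libraries. The depth over the inserted bases, which lie left of the rARS, was left out. Counted as left, it would lower the share, so the value is not directly comparable. No SIR2 library with terminator was set beside it.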

How the data were processed

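The authors deposited read depth per base (signal, that is coverage) on chromosome XII for 28 libraries, from 50-base paired ends of fragments of all sizes, neither scaled nor size-selected. The submitters' processing notes name GSNAP, Picard, bedtools and sacCer3; versions were not given in the sources used here. Libraries of expanded rDNA were mapped to a modified chromosome XII. Of the 28 columns, 12 were used and 16 were not used here. Columns were assigned to a group by their strain and calcium time, and which of a group's samples each one is cannot be told.

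Depths were divided by their library total. Window shares, the right share, local maxima (highest within 75 bases) and steps at least 10 bases apart were computed with Python 3.11.15, numpy 2.4.6, pandas 2.3.3 and scipy 1.17.1. Bins of 50 bp were tested with limma 3.58.1 in R 4.3.3 on log2 shares, with Benjamini-Hochberg adjustment over all 39 bins (threshold 0.05). The fit was also run on simulated bins. These were independent and had 1 common spread, so they cannot give the error rate for bins that share reads or for 1 strain per genotype. Calcium time was the pairing term, as the column names give it. The 5 bins with the largest fall and the 5 with the largest rise in share were named. Figures were drawn with matplotlib 3.10.9. Libraries of 1 genotype were not duplicates: chi-square tests of their read counts per bin gave 10118 (SIR2) and 20747 (sir2) with 37 degrees of freedom.

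Members, windows and tests were chosen with earlier results of these data known. Alternatives were other scalings, background subtraction, moved boundaries, other bin widths and folds, a filter, a pseudocount of 0.5, no pairing term, each library left out, and, chosen after seeing the data, covered bases only.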

Additional observations from a re-analysis of the deposited data

Results flagged for a closer look

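The ratio of sir2 to SIR2 pointed in opposite directions at the 2 calcium times in both windows at the left end of the interval. In RDN37-1 its log2 was 0.12 at 30 s and −0.05 at 60 s, a difference of 0.17. In the spacer left of the Reb1 window it was 0.0057 and −0.0036, a difference of 0.01.

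The change from 30 s to 60 s went opposite ways in the genotypes in a further pair of windows. In nucleosome 3 the log2 of 60 s over 30 s was 0.11 in SIR2 and −0.05 in sir2, a difference of 0.15. At the start of NTS1-2 it was −0.0073 in SIR2 and 0.18 in sir2, a difference of −0.18. With 1 library for each genotype and time, none of these 4 differences was tested.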

How the results depend on the processing

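With 1 library left out at a time, the right share difference ranged from 12.7 and 16.2 points, the log2 ratio left of the rARS between −0.71 and −0.51, that to its right between 0.31 and 0.40, and the log2 of the ratio of maxima between 1.22 and 1.46, while the called bins were 0 to 0 in each direction. The log2 ratio ran from −0.18 to 0.24 in RDN37-1 and from −0.094 to 0.096 in the spacer left of Reb1, windows where the genotypes overlapped: it turned negative without SIR2 at 60 s (−0.09 and −0.089) and without sir2 at 30 s (−0.18 and −0.094). The right share difference was 6.85 and 16.6 points with the boundary 40 bp further left and right, and 17.8 with the background subtracted. Scaled to the Reb1 window, the log2 ratio was −0.29 left and 0.67 right of the rARS, against −0.61 and 0.35. It was 0.43 to the right when scaled to the depth outside the region, and −0.71 and 0.45 with the background subtracted.

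Bases past 1.5-fold numbered 365 higher and 0 lower with Reb1 scaling and 82 and 4 with outside scaling, and at a fold of 2 there were 0 and 0. Called bins numbered 28 higher and 1 lower with Reb1 scaling, 15 and 4 with outside scaling, 8 and 4 of 19 at 100 bp, 21 and 14 of 99 at 20 bp, 13 and 8 of 25 without bins under 1% of the depth, 14 and 9 with the pseudocount, and 16 and 8 of 37 over covered bases only. Without the replicate block, that is without the pairing by calcium time, 2 bins were higher and 2 lower, all 4 of them among those called with it. Of 72 further values of single windows under these alternatives, 47 moved by less than the spread between the times, 21 moved by more and 4 changed sign as given above. All 21 came from another scaling or from background subtraction. The rest of the 72 are mostly values with 1 library left out, which can hardly move a mean of 2 libraries beyond their own spread. The 47 are therefore no sign of stable values. Each genotype is 1 strain, so no setting measures the spread between strains, and totals over the genome were not analysed.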

Other observations

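The time for which calcium was present moved the profiles of both genotypes in a like way. Over 38 bins the log2 ratio of 60 s to 30 s in SIR2 correlated with that in sir2 with r = 0.88. Bins share reads and base composition, so this is a description. The share of RDN37-1 was lower at 60 s in both genotypes, and the share of nucleosome 4 was higher.

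The A and T content of the windows ran from 47.9% in RDN5-1 to 67.2% at the start of NTS1-2. It was 63.2% in nucleosome 2 and 58.4% in nucleosome 3.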
